A study of Mus musculus with 8 samples.

Results

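The genes described here encode 33 enzymes that make serine and folate-bound one-carbon units, pentose phosphates, purine nucleotides and pyrimidine nucleotides. They were chosen by gene name, without use of their measured values, as 9 enzymes of serine and folate metabolism, 7 of the pentose phosphate pathway, 12 of purine synthesis and 5 of pyrimidine synthesis. All 33 were among the 13439 genes listed, and all 33 passed the filter on low values that left 13120 genes for testing. RNA came from mouse left ventricle, with 8 libraries that make up 4 groups of 2. Floxed mice (genotype Lin28afl/fl) were the control littermates of mice labelled Lin28aCko, called cKO here, in which the RNA-binding protein gene Lin28a was knocked out in the heart. Mice of either genotype were operated on, with a sham procedure or with a constriction of the transverse aorta (TAC), which raises the pressure the left ventricle works against. TAC hearts were taken at day 5, and for sham hearts no day is given. The promoter that drove the deletion, the strain, the sex and the age of the mice were not stated.

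Serine is built from a glycolytic intermediate by Phgdh, Psat1 and Psph, and the Shmt enzymes pass a carbon of serine to folate. Folate then carries one-carbon units through a mitochondrial arm (Mthfd2, Mthfd1l, Aldh1l2) and a cytosolic arm (Mthfd1) to purine and thymidylate synthesis. The pentose phosphate pathway makes NADPH in its oxidative arm and ribose phosphate in both arms, and Prps enzymes activate that ribose for purines and pyrimidines alike. Adult heart muscle is known to cover much of its nucleotide need by salvage, with little flow through the pentose phosphate pathway at rest.

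Library totals were between 10315902 and 21871570 reads assigned to genes. A count of 0 allows up to 3 reads, or 0.137 to 0.291 CPM (reads scaled to an equal library total), as far as counting error alone goes. Lin28a itself was not analysed here, and the genotype of each library is taken from its label. The labels call the libraries duplicates without naming separate animals, so p-values measure the spread between these samples, which may be technical. Heart muscle markers summed to between 54256 and 82776 CPM (8 of 8 listed), while adipocyte markers were not analysed here and 1 of 5 lymphocyte markers was listed, at no more than 1.04 CPM. Atrial markers summed to 139 to 279 CPM in floxed sham 2, cKO sham 2 and cKO TAC 2 and to 6.27 to 17.1 CPM in the other 5 libraries. The X-inactivation transcript Xist was at 44.3 CPM in cKO sham 2 and at no more than 0.173 CPM in the other 7 libraries, which bears on the X-linked members G6pdx, Prps1, Prps2 and Ctps2.

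TAC against sham in floxed hearts asks how the enzymes respond to the load while Lin28a is present. Of the enzymes by role, 5 of 9 for serine and folate, 6 of 7 for pentose phosphates, 3 of 12 for purines and 3 of 5 for pyrimidines rose, while 1 purine and 1 pyrimidine enzyme fell and the others did not pass the test. By limma on log2(CPM + 1) with Benjamini-Hochberg adjustment over all genes, 19 of the 33 enzymes passed an adjusted p of 0.05, 17 higher and 2 lower. Of all genes tested 42.4% passed, 27.9% higher and 14.5% lower, so 57.6% of these enzymes compares with a background that was itself high. The median log2 change was 0.47 for the enzymes and 0.14 for all genes. Without floxed sham 1, floxed TAC 1 or floxed TAC 2 fewer enzymes passed, and their share was near that of all genes, which also fell. In these fits the median of the enzymes was 0.33, 0.47 and 0.46, against 0.13 each time for all genes. When libraries were scaled by relative log expression (RLE), the median of all genes moved from 0.14 to 0.00 and the calls over all genes from 3655 higher and 1907 lower to 2985 higher and 2595 lower. Under that scaling 11 of the enzymes were higher and 3 lower, with Prps2 the added lower one. These 14 of 33 (42.4%) were about the same share as the 5580 of 13120 genes that passed. With TMM scaling, edgeR and DESeq2, 15, 15 and 14 enzymes passed, where 5583, 5559 and 5290 of all genes did. Under RLE scaling the median of the enzymes exceeded that of all genes by 0.32, against 0.33 without it.

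Both floxed TAC libraries lay above all other 6 libraries for 20 of the 33 enzymes, against 32.7% of all genes. The 20 comprised 6 of 9 serine and folate enzymes, 6 of 7 pentose phosphate enzymes, 4 of 12 purine enzymes and 4 of 5 pyrimidine enzymes. Both floxed TAC libraries lay below the other 6 for Shmt1, Paics, Adsl and Dhodh, against 17.4% of all genes.

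**Figure D1:**
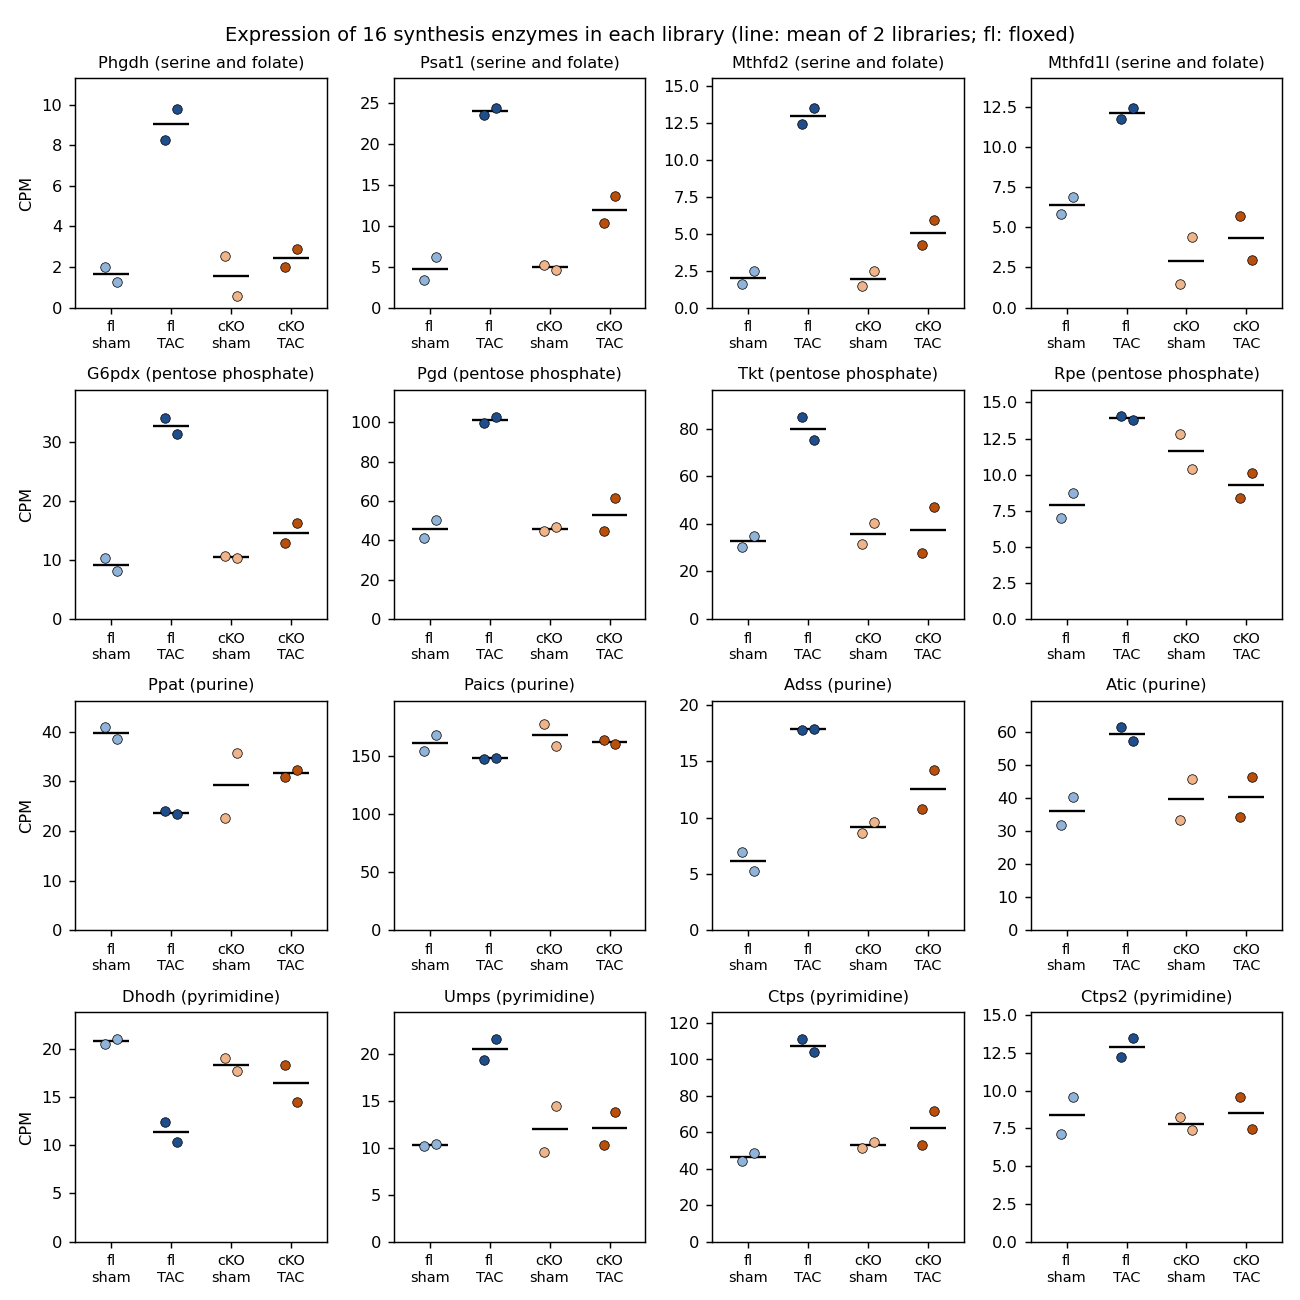
Expression of 16 of the enzymes in each of the 8 libraries, in CPM on linear axes that start at 0, with 1 panel per gene, a point for each library and a bar for the group mean (n = 2). The floxed TAC points stand above all others in 13 panels and below all others for Dhodh and Paics, while for Ppat 1 cKO sham library is lower still. The 16 are a selection from the 33 enzymes, of which 20 had both floxed TAC libraries highest and 4 lowest. Enzymes such as Shmt2, Psph and Rpia, which did not pass, are not shown.

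In serine synthesis 2 of the 3 enzymes rose in floxed hearts, and the third did not pass. Phgdh, which commits 3-phosphoglycerate to serine, was at 2.01 and 1.26 CPM in floxed sham, 8.28 and 9.8 in floxed TAC, 2.52 and 0.597 in cKO sham and 1.99 and 2.88 in cKO TAC libraries. The floxed TAC libraries lay far above the other 6, which overlapped each other, and the change in floxed hearts was log2 1.94 ± 0.36, adjusted p = 0.00201. Psat1, the transaminase of the second step, was at 3.37 and 6.18 CPM in floxed sham, 23.6 and 24.4 in floxed TAC, 5.23 and 4.65 in cKO sham and 10.3 and 13.7 in cKO TAC libraries. Psat1 was highest in floxed TAC and next highest in cKO TAC, and neither overlapped the sham libraries (log2 2.16 ± 0.25, adjusted p = 0.000169 in floxed hearts). Psph, the phosphatase that releases serine, ranged over 5.24 to 10.2 CPM in the 8 libraries with overlapping groups, and its change in floxed hearts was log2 0.27 ± 0.23, adjusted p = 0.369.

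The Shmt genes, which load the one-carbon unit onto folate, did not pass in floxed hearts. Mitochondrial Shmt2 was between 50.1 and 59.5 CPM in every library, and its change of log2 -0.00 had a 95% interval of -0.26 to 0.25. Cytosolic Shmt1 was at 7.53 and 9.6 CPM in floxed sham, 6.9 and 6.18 in floxed TAC, 13.7 and 9.56 in cKO sham and 11.7 and 10.5 in cKO TAC libraries, with both floxed TAC libraries lowest (log2 -0.34, adjusted p = 0.242). Of the mitochondrial folate enzymes Mthfd2, the dehydrogenase and cyclohydrolase, changed most, at 1.62 and 2.46 CPM in floxed sham, 12.4 and 13.5 in floxed TAC, 1.45 and 2.46 in cKO sham and 4.25 and 5.94 in cKO TAC libraries. Its floxed TAC libraries stood apart from the rest, its cKO TAC libraries lay between them and all sham libraries, and the change in floxed hearts was log2 2.21 ± 0.26, adjusted p = 0.000175.

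Mthfd1l, which makes formate in mitochondria, was at 5.84 and 6.9 CPM in floxed sham, 11.8 and 12.4 in floxed TAC, 1.45 and 4.38 in cKO sham and 5.68 and 2.94 in cKO TAC libraries. Although both floxed TAC libraries were highest, the change of log2 0.83 ± 0.37, adjusted p = 0.0959 did not pass. Aldh1l2, which oxidises formyl-folate in mitochondria, rose by log2 1.18 ± 0.43 (adjusted p = 0.0494), from 1.82 and 5.4 CPM to 9.83 and 7.53 CPM. Mthfd1, the cytosolic enzyme with 3 activities, rose from 35.4 ± 4.44 to 48.4 ± 1.07 CPM (SD, n = 2 libraries; log2 0.45 ± 0.14, adjusted p = 0.0276). The calls of Phgdh, Psat1 and Mthfd2 were kept when any 1 of the 8 libraries was left out. Those of Mthfd1 (without floxed sham 1 or either floxed TAC library) and Aldh1l2 (without floxed sham 1, either floxed TAC or either cKO TAC library) were lost, with adjusted p up to 0.212 and 0.356, and both were also lost under RLE and TMM scaling.

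Pentose phosphate enzymes rose in floxed hearts in 6 of 7 cases, and the exception was Rpia. G6pdx (chromosome X, 74409483 to 74429194, mm10), the entry enzyme that makes NADPH, was at 10.3 and 8.1 CPM in floxed sham, 34.1 and 31.5 in floxed TAC, 10.7 and 10.4 in cKO sham and 13 and 16.2 in cKO TAC libraries. All 4 sham libraries fell within 8.10 to 10.7 CPM, including cKO sham 2, and the change in floxed hearts was log2 1.73 ± 0.18, adjusted p = 9.43e-05. Pgd, the second NADPH-producing dehydrogenase, was at 41.1 and 50.6 CPM in floxed sham, 99.9 and 103 in floxed TAC, 44.6 and 46.6 in cKO sham and 44.5 and 61.4 in cKO TAC libraries. Floxed TAC was about level in both libraries and above all others, whereas cKO TAC 1 lay within the sham range (log2 1.14 ± 0.16, adjusted p = 0.000484 in floxed hearts). Pgls, the lactonase between these dehydrogenases, rose by log2 0.47 (adjusted p = 0.016).

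In the non-oxidative arm, which interconverts pentoses with glycolytic sugars, Tkt changed most. Tkt, the transketolase, was at 30.4 and 35 CPM in floxed sham, 84.8 and 75.1 in floxed TAC, 31.6 and 40.3 in cKO sham and 27.8 and 47.1 in cKO TAC libraries. Only the floxed TAC libraries left the range of the shams on the upper side in both replicates (log2 1.27 ± 0.22, adjusted p = 0.00162 in floxed hearts), and cKO TAC 1 was the lowest library of all. Rpe, the epimerase, was at 7.01 and 8.76 CPM in floxed sham, 14.1 and 13.8 in floxed TAC, 12.8 and 10.4 in cKO sham and 8.38 and 10.1 in cKO TAC libraries (log2 0.76 ± 0.19, adjusted p = 0.0112 in floxed hearts), so its cKO sham libraries lay above its cKO TAC libraries. Taldo1, the transaldolase, rose from 99 ± 8.0 to 137 ± 16.6 CPM (SD, n = 2; log2 0.46 ± 0.12, adjusted p = 0.012). Rpia, the isomerase that makes ribose 5-phosphate, had a change of log2 -0.00 with an interval of -0.37 to 0.37. The calls of G6pdx, Pgd and Tkt were kept without any 1 of the 8 libraries, while Pgls and Rpe were lost without floxed sham 1 or either floxed TAC library and Taldo1 without floxed sham 1 or floxed TAC 1 (adjusted p up to 0.157, 0.0956 and 0.111). Under RLE scaling Pgls and Taldo1 did not pass.

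Of the 12 purine enzymes 3 were higher (Atic, Adss and Impdh1), 1 was lower (Ppat) and 8 did not pass in floxed hearts. Ppat, the amidotransferase of the first committed step, was at 41 and 38.4 CPM in floxed sham, 24 and 23.4 in floxed TAC, 22.6 and 35.8 in cKO sham and 30.8 and 32.3 in cKO TAC libraries. It fell in floxed hearts (log2 -0.72 ± 0.19, adjusted p = 0.0132), although cKO sham 1 was lower than both floxed TAC libraries, and the call was lost without any 1 of the 4 floxed libraries (adjusted p up to 0.0843). Ppat and Paics lie head to head on chromosome 5, where their gene models overlap by 272 bases on opposite strands, and whether reads were counted by strand is not known here, so reads of the shared stretch may count for either gene. Paics, which carries out 2 middle steps of ring assembly, was at 155 and 168 CPM in floxed sham, 148 and 149 in floxed TAC, 178 and 159 in cKO sham and 164 and 161 in cKO TAC libraries, with a change of log2 -0.12 and an interval of -0.35 to 0.11.

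Gart, Pfas and Adsl, the other enzymes of the middle of the chain, had log2 changes of -0.03, -0.09 and -0.02 in floxed hearts. Their 95% intervals were -0.29 to 0.22, -0.50 to 0.31 and -0.28 to 0.24, which bound any change on this scale. The ribose-activating enzymes Prps1 (log2 0.09, adjusted p = 0.675) and Prps2 (log2 -0.48, adjusted p = 0.0671) did not pass either. Atic, which closes the purine ring with a formyl-folate carbon, was at 32 and 40.3 CPM in floxed sham, 61.6 and 57.4 in floxed TAC, 33.4 and 45.9 in cKO sham and 34.3 and 46.4 in cKO TAC libraries. It rose in floxed hearts (log2 0.71 ± 0.20, adjusted p = 0.0152) with both floxed TAC libraries above the other 6, and the call was lost without floxed sham 1 or either floxed TAC library (adjusted p up to 0.126).

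At the branch after the ring is complete, Adss turns inosine monophosphate towards AMP and Impdh1 and Impdh2 turn it towards GMP. Adss was at 6.94 and 5.28 CPM in floxed sham, 17.8 and 17.8 in floxed TAC, 8.63 and 9.62 in cKO sham and 10.8 and 14.2 in cKO TAC libraries. Its 4 groups did not overlap, in the order floxed sham, cKO sham, cKO TAC and floxed TAC from lowest to highest, and the change in floxed hearts was log2 1.41 ± 0.20, adjusted p = 0.000465. Impdh1 rose from 38 ± 0.507 to 53.7 ± 6.28 CPM (SD, n = 2; log2 0.48 ± 0.17, adjusted p = 0.0415), a call lost under RLE scaling and without any 1 of the 4 floxed or 2 cKO sham libraries (adjusted p up to 0.221). Impdh2 changed by log2 0.26 (adjusted p = 0.151) and Gmps, which finishes GMP, by log2 -0.02 (adjusted p = 0.943).

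Among the 5 pyrimidine enzymes 3 rose, 1 fell and 1 did not pass in floxed hearts. Cad, the large enzyme of the first steps, was at 20.3 and 25.3 CPM in floxed sham, 29.5 and 34.6 in floxed TAC, 22.3 and 28.8 in cKO sham and 17.8 and 25.5 in cKO TAC libraries (log2 0.48, adjusted p = 0.0907). Dhodh, the next enzyme, which sits in the inner mitochondrial membrane and passes electrons to the respiratory chain, was at 20.5 and 21.1 CPM in floxed sham, 12.4 and 10.3 in floxed TAC, 19 and 17.7 in cKO sham and 18.4 and 14.5 in cKO TAC libraries. It fell in floxed hearts (log2 -0.82 ± 0.17, adjusted p = 0.0041), and both floxed TAC libraries were below the other 6. Umps, which forms uridine monophosphate, was at 10.3 and 10.4 CPM in floxed sham, 19.4 and 21.6 in floxed TAC, 9.6 and 14.5 in cKO sham and 10.3 and 13.9 in cKO TAC libraries. It rose in floxed hearts (log2 0.92 ± 0.22, adjusted p = 0.00779), so the neighbouring steps of Dhodh and Umps changed in opposite directions.

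The CTP synthases end the pathway, and both rose in floxed hearts. Ctps (chromosome 4, 120539868 to 120570276, mm10) was at 44.2 and 48.4 CPM in floxed sham, 111 and 104 in floxed TAC, 51.5 and 54.9 in cKO sham and 53.1 and 71.7 in cKO TAC libraries. Every floxed TAC value exceeded every other library (log2 1.2 ± 0.15, adjusted p = 0.000219). Ctps2 rose from 8.37 ± 1.74 to 12.9 ± 0.862 CPM (SD, n = 2; log2 0.58 ± 0.21, adjusted p = 0.0484), but it did not pass under RLE scaling, by edgeR or by DESeq2, or without any 1 of the floxed or cKO sham libraries (adjusted p up to 0.295). Umps was lost without floxed TAC 2 (adjusted p = 0.0575), and Dhodh and Ctps were kept without any 1 of the 8 libraries.

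**Figure D2:**
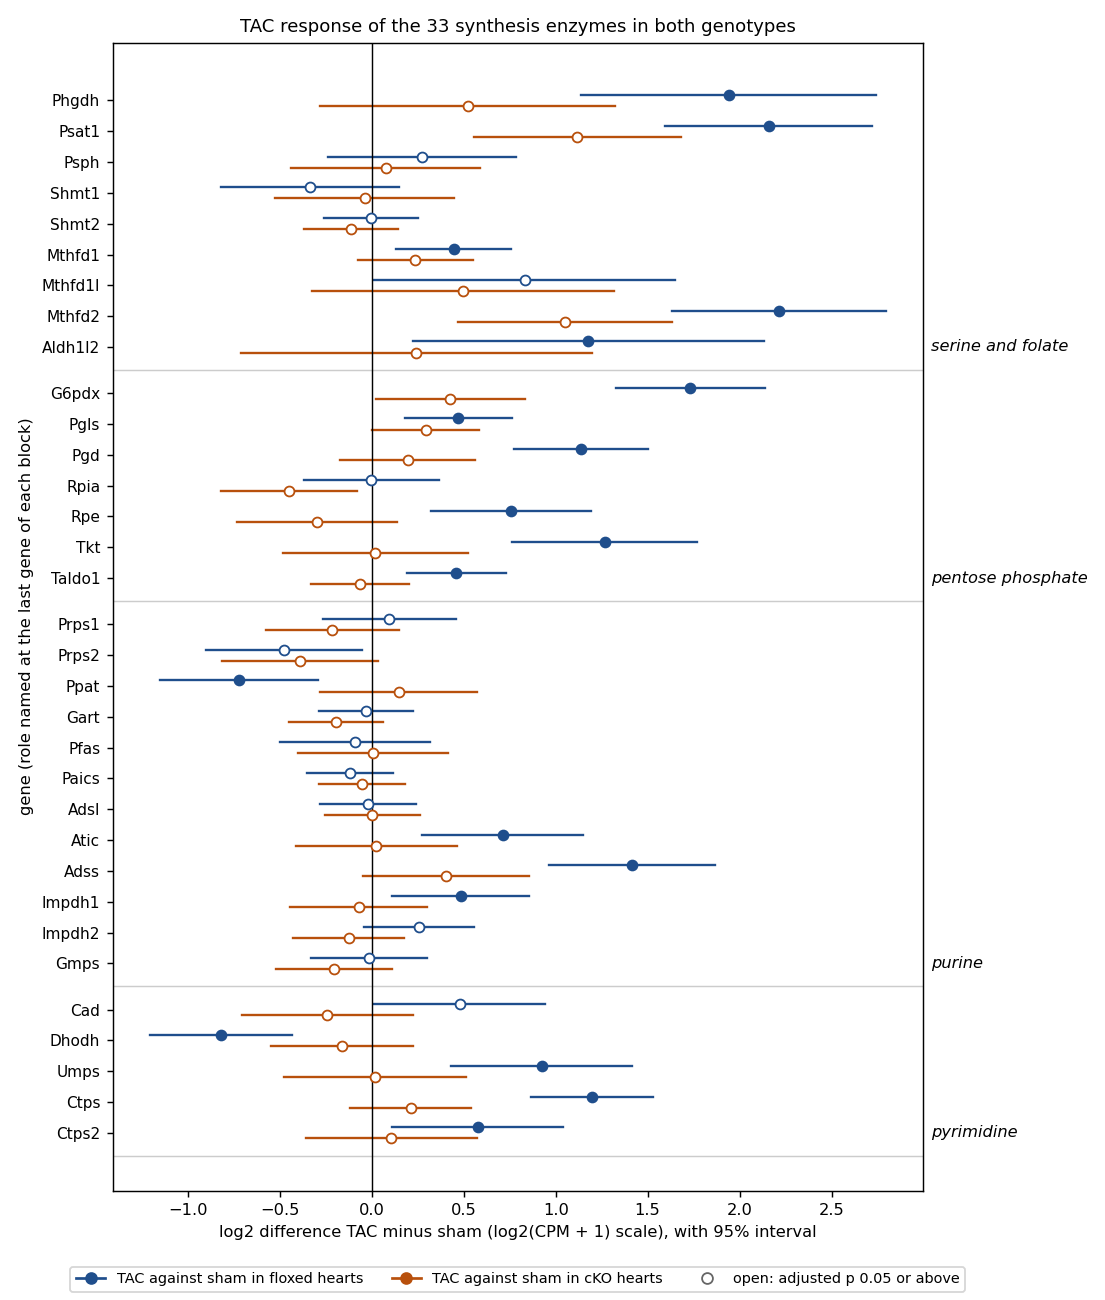
Log2 difference of TAC against sham on the log2(CPM + 1) scale for the 33 enzymes, with 95% intervals, in floxed (blue) and cKO hearts (orange), where open points mark an adjusted p of 0.05 or above. Of the blue points 19 are filled, 17 of them right of 0, and none of the orange points is filled.

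Fewer or more cells of a type and less or more RNA per cell cannot be told apart in whole ventricle, and markers of several cell types moved with these enzymes. In floxed sham libraries 10 macrophage markers summed to 431 and 436 CPM and in floxed TAC libraries to 2397 and 2124 CPM, with 10 of 10 higher by limma. Dividing-cell markers summed to 14.7 and 20.6 CPM in floxed sham and to 186 in both floxed TAC libraries (8 of 8 higher), and fibroblast markers to 1274 and 1368 against 9246 and 12171 CPM (6 of 7 higher). Heart muscle markers summed to 82776 and 73877 against 55947 and 54256 CPM, with 5 of 8 lower and 1 higher. Neutrophil markers (3 of 4 listed, with S100a8 at 0 in at least 1 library) rose from 0.973 and 1.08 CPM in sum to 8.5 and 8.69 CPM, and smooth muscle markers passed in 3 of 4 cases. Endothelial markers, at 1006 to 1117 CPM in the 4 floxed libraries, had none of 6 past the test. The part of these shifts in the enzyme changes was not tested.

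Promoter windows (GRCm38.p6, 250 bases before and 50 bases from the RefSeq start) were available for 30 of the 33 enzymes. They were searched on both strands for 4 motifs of regulators known to act on these pathways. The antioxidant response element core TGACNNNGC, bound by NRF2, was in 6 of the 30 windows and in 12.4% of all 32851 windows. Those 6 were Phgdh, Psph, G6pdx, Pgd, Cad and Ctps2, of which Phgdh, G6pdx, Pgd and Ctps2 rose in floxed TAC hearts. Of all 33 enzymes 17 rose there, and a link between the motif and the rise was not tested. The call of Ctps2 was lost under RLE scaling, by edgeR and by DESeq2, as given above. The stretches of the 4 that rose are shown 5′ to 3′ on the strand of the gene, with the match in capitals. The match begins 53, 57 and 8 bases before the RefSeq start in Phgdh, G6pdx and Ctps2, and after it in Pgd. In G6pdx, Pgd and Ctps2 that start differs from the gene start in GENCODE M21, and the stretches lie inside the GENCODE span of the gene. The stretches of G6pdx, Pgd and Ctps2 overlap annotated exons. In Phgdh, G6pdx and Ctps2 the capitals hold the core on the opposite strand, and in Pgd on the strand shown.
Phgdh, chr3:98340004-98340032, minus strand: gcccggggagGCGGAGTCAgcagagttta
G6pdx, chrX:74428919-74428947, minus strand: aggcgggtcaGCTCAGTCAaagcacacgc
Pgd, chr4:149166071-149166089, minus strand: atttcagagcTGACATTGC
Ctps2, chrX:162902153-162902171, plus strand: agtgccgggtGCTCAGTCA

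The E-box CACGTG, which MYC and USF bind, was in the windows of Atic, Impdh2 and Paics and in 7.15% of all windows. The cAMP response element TGACGTCA was in the window of Umps alone among the enzymes and in 1.79% of all windows. The amino acid response element TGATGNAA, through which ATF4 acts with C/EBP proteins, was in the window of Prps1 alone and in 3.97% of all windows. Thus the members with this last motif do not include Phgdh, Psat1 or Mthfd2, which says only that these letters are not in the 300 bases searched. The 2 stretches below show the E-box of Atic, which rose, and the ATF4 motif of Prps1, which did not pass, with the match in capitals. The stretch of Atic overlaps an annotated exon. A match is a run of letters and not evidence of binding.
Atic, chr1:71557139-71557155, plus strand: acctcggggtCACGTGg
Prps1, chrX:140456407-140456466, plus strand: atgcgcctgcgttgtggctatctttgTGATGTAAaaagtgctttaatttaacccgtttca

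TAC against sham in cKO hearts asks for the response in the knockouts. None of the 33 enzymes passed by limma, where 2.53% of all genes did (2.09% higher, 0.442% lower), and 5 were below an unadjusted p of 0.05. By edgeR 1 enzyme passed (Psat1), by DESeq2 2 (Psat1 and Mthfd2) and by limma-voom 0. The median log2 change of the enzymes was 0.02, the same as that of all genes, and it lay on either side of 0 across the alternatives. Psat1 had the largest change, from 4.94 ± 0.417 to 12 ± 2.36 CPM (SD, n = 2; log2 1.12 ± 0.25, adjusted p = 0.0527), and Mthfd2 the next, from 1.95 ± 0.708 to 5.09 ± 1.19 CPM (log2 1.05 ± 0.26, adjusted p = 0.0726). Psat1 passed by limma without floxed sham 1, floxed sham 2 or cKO TAC 1 (adjusted p of 0.040, 0.0418 and 0.042).

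The other 3 enzymes under an unadjusted p of 0.05 belong to the pentose phosphate pathway. G6pdx had a log2 change of 0.43 (interval 0.02 to 0.83) and Pgls of 0.29 (0.00 to 0.58), and Rpia had -0.45 (-0.82 to -0.08). Tkt (log2 0.02, -0.48 to 0.52), Pgd (log2 0.19, -0.17 to 0.56), Umps (log2 0.02, -0.48 to 0.51) and Ctps (log2 0.21, -0.12 to 0.54) had intervals that included 0. Both cKO TAC libraries lay above all 4 sham libraries and below both floxed TAC libraries for Psat1, Mthfd2, G6pdx, Pgls and Adss, 5 of 33 enzymes against 10.7% of all genes. Over the same comparison 7 of 8 dividing-cell markers and 8 of 10 macrophage markers passed, summing to 71.7 and 99.1 CPM and to 771 and 1039 CPM in the cKO TAC libraries.

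cKO against floxed in sham hearts asks for a genotype difference before the load. None of the 33 enzymes passed by limma, and none by edgeR, DESeq2 or limma-voom, where 0.0534% of all genes passed by limma (0.0457% higher, 0.00762% lower). At an unadjusted p under 0.05 there were 5 enzymes, namely Mthfd1l (log2 -1.02 ± 0.37, adjusted p = 0.599), Rpia (0.55), Rpe (0.51), Ppat (-0.47) and Adss (0.52). Mthfd1l was below both floxed sham libraries in both cKO sham libraries, and Rpia, Rpe and Adss were above them. In Ppat the cKO sham libraries, at 22.6 and 35.8 CPM, were themselves far apart. For G6pdx, Phgdh, Mthfd2 and Psat1 the log2 differences were 0.19, -0.14, -0.05 and 0.08, with intervals of -0.22 to 0.59, -0.94 to 0.66, -0.63 to 0.53 and -0.48 to 0.65.

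cKO against floxed in TAC hearts compares the genotypes under load. Of the 33 enzymes 12 passed, 11 lower and 1 higher, where 24.9% of all genes passed, 16.5% lower and 8.39% higher. The median log2 difference was -0.45 for the enzymes and -0.10 for all genes. Under RLE scaling the calls over all genes went from 1101 higher and 2162 lower to 1421 higher and 1752 lower, and those of the enzymes to 2 higher and 10 lower, with Dhodh added and Taldo1 lost. These values share the floxed TAC libraries with the response in floxed hearts, so they do not stand apart from it.

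By role, 5 of 9 serine and folate enzymes were lower and 1 higher, 4 of 7 pentose phosphate enzymes and 2 of 5 pyrimidine enzymes were lower, and 0 of 12 purine enzymes passed. Phgdh differed most, at 9.04 ± 1.08 CPM in floxed TAC and 2.43 ± 0.633 CPM in cKO TAC (SD, n = 2; log2 -1.56 ± 0.36, adjusted p = 0.0131). Aldh1l2 (log2 -1.43), Mthfd1l (log2 -1.35), Mthfd2 (log2 -1.21) and Psat1 (log2 -0.96) were also lower, at adjusted p between 0.0099 and 0.0365. Shmt1 was the enzyme that was higher in cKO TAC (log2 0.68 ± 0.22, adjusted p = 0.0448), and its mitochondrial counterpart Shmt2 differed by log2 -0.11 (interval -0.36 to 0.15). Mthfd1 and Psph differed by log2 -0.35 and -0.43 and did not pass.

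G6pdx was at 32.8 ± 1.85 CPM in floxed TAC and 14.6 ± 2.32 CPM in cKO TAC (SD, n = 2; log2 -1.12 ± 0.18, adjusted p = 0.00324). Tkt (log2 -1.12), Pgd (log2 -0.94) and Taldo1 (log2 -0.45) were lower with it, at adjusted p of 0.00759, 0.00417 and 0.0227. Of the pyrimidine enzymes, Ctps (log2 -0.79 ± 0.15, adjusted p = 0.00567) and Umps (log2 -0.73 ± 0.22, adjusted p = 0.0382) were lower, whereas Dhodh was at log2 0.49 (adjusted p = 0.0662). The purine enzymes lay between log2 -0.57 for Atic and 0.40 for Ppat, and the nearest to the threshold was Atic at an adjusted p of 0.061.

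The calls of G6pdx, Pgd and Ctps were kept without any 1 of the 8 libraries, and the other 9 were lost without at least 1 library. Without floxed TAC 1, floxed TAC 2 or cKO TAC 1 far fewer of the enzymes passed, and so did far fewer of all genes. The median of the enzymes was then log2 -0.38, -0.45 and -0.25, against -0.09, -0.10 and -0.06 for all genes. The largest adjusted p among these 9 was 0.21, for Umps. Macrophage markers were lower in cKO TAC in 10 of 10 cases, dividing-cell markers in 6 of 8 and fibroblast markers in 4 of 7, while 6 of 8 heart muscle markers were higher. The part of these shifts in the enzyme differences was not tested. Without the 3 libraries that hold atrial transcripts, none of them floxed TAC, more of the enzymes and more of all genes passed. The median of the enzymes was then log2 -0.50, against -0.15 for all genes.

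**Figure D3:**
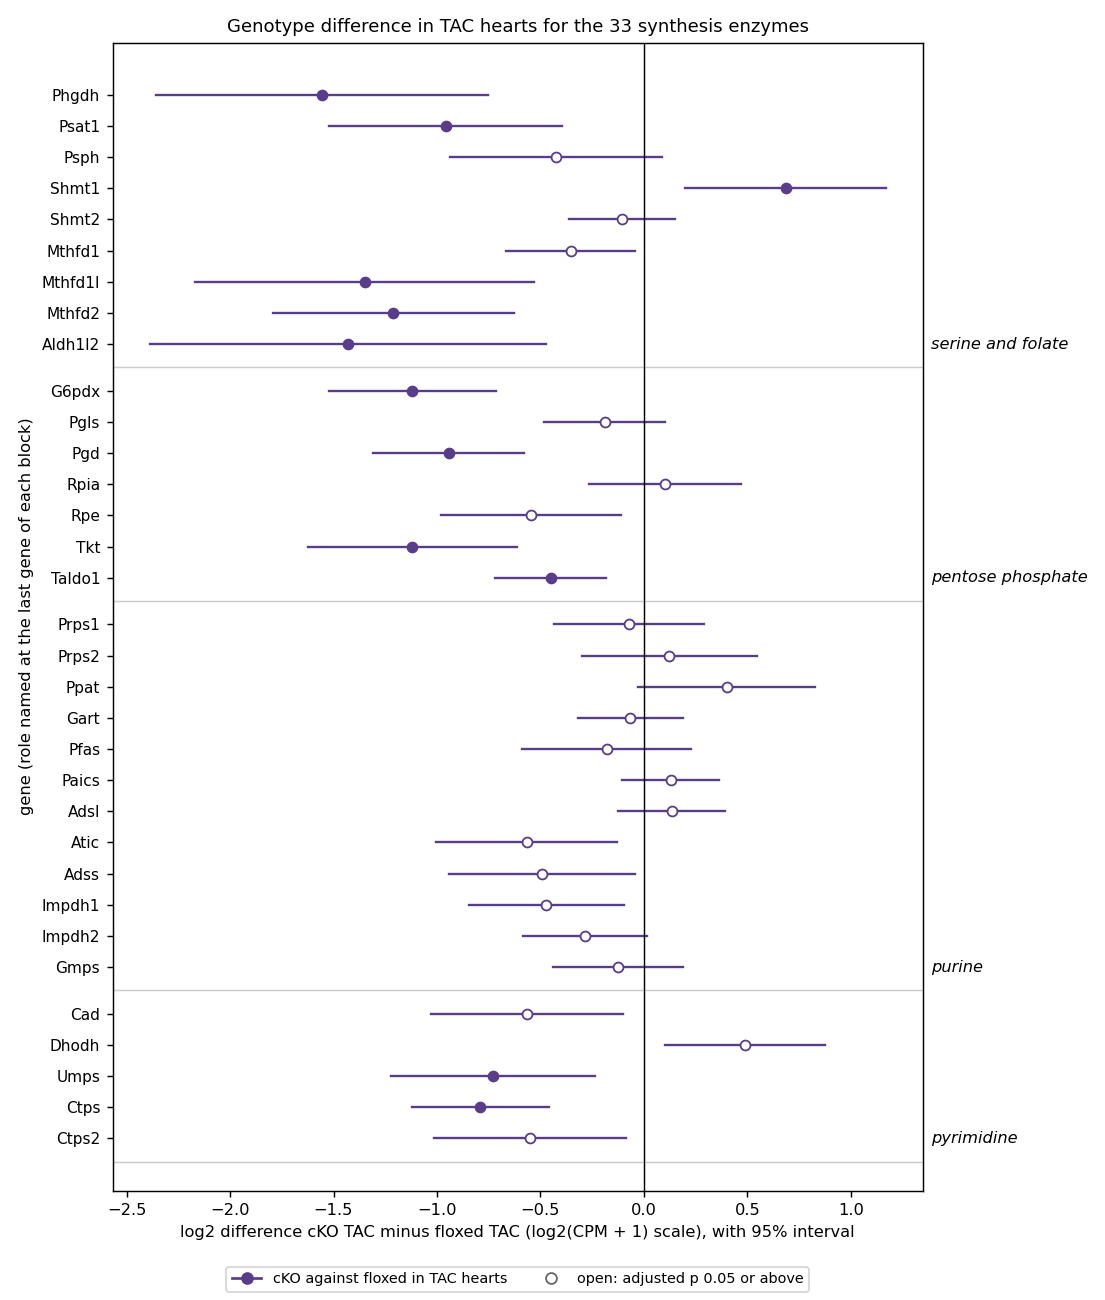
Log2 difference of cKO TAC minus floxed TAC hearts for the 33 enzymes on the log2(CPM + 1) scale, with 95% intervals, where filled points passed an adjusted p of 0.05. Filled points lie left of 0 for 11 enzymes and right of 0 for Shmt1, and no purine enzyme is filled.

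The interaction tests whether the response to TAC differed between genotypes, as the cKO response minus the floxed response. Of the 33 enzymes 6 passed (18.2%), all with a lower response in cKO hearts. The share over all genes was 14.1%, with 9.18% lower and 4.93% higher. The median was -0.45 for the enzymes and -0.13 for all genes. The 6 were G6pdx (log2 -1.31 ± 0.26, adjusted p = 0.0136), Tkt (log2 -1.25 ± 0.32, adjusted p = 0.0314), Rpe (log2 -1.05 ± 0.27, adjusted p = 0.0341), Adss (log2 -1.01 ± 0.28, adjusted p = 0.0438), Ctps (log2 -0.99 ± 0.21, adjusted p = 0.0173) and Pgd (log2 -0.94 ± 0.23, adjusted p = 0.0273). Under RLE scaling the calls over all genes went from 647 higher and 1204 lower to 846 higher and 917 lower, and those of the enzymes to 1 higher and 5 lower, with Ppat added on the higher side and Adss lost. On the recovered reads the balance over all genes turned round, to 820 higher and 781 lower by edgeR, 1003 and 930 by DESeq2 and 832 and 736 by limma-voom. Of the markers, 7 of 10 for macrophages, 3 of 7 for fibroblasts and 1 of 8 for dividing cells had a lower response in cKO hearts and 5 of 8 for heart muscle a higher one, and their part in the interaction was not tested.

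No serine or folate enzyme passed the interaction, although several estimates were as large. Phgdh had log2 -1.42 ± 0.51 (adjusted p = 0.0897), Mthfd2 -1.16 ± 0.37 (0.0635) and Psat1 -1.04 ± 0.36 (0.0801), so a different response of these genes was not shown. Taldo1 and Umps had log2 -0.52 (adjusted p = 0.0676) and -0.91 (0.0814). On the higher side Ppat had log2 0.87 (0.061) and Dhodh 0.66 (0.0987). None of the 6 calls was kept in every fit that left out 1 library. Few or none of the enzymes passed without any 1 of the floxed libraries or without cKO TAC 1, and more passed without cKO TAC 2. The number of all genes past the threshold fell and rose in the same fits. Leaving out 1 library cost G6pdx its call without floxed sham 2 or floxed TAC 1 (adjusted p up to 0.0569) and Ctps without any 1 of the floxed libraries (up to 0.0852). Pgd and Adss lost theirs in 7 of the 8 such fits and Rpe and Tkt in 6, with adjusted p up to 0.123, 0.144, 0.139 and 0.125.

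Several steps are shared by a pair of genes, whose levels were set side by side as CPM per kb of exon. Adssl1, the muscle isozyme of Adss, was chosen for this comparison after its values were seen. It was at 104 ± 3.04 CPM per kb in floxed sham, 60.0 ± 4.77 in floxed TAC, 108 ± 10.3 in cKO sham and 98.6 ± 18.3 in cKO TAC (SD, n = 2). Adss was at 2.21 ± 0.424, 6.43 ± 0.0136, 3.29 ± 0.254 and 4.51 ± 0.887 CPM per kb in the same order. Adssl1 was thus the more abundant transcript in every library, and it fell in floxed hearts (log2 -0.78 ± 0.14, adjusted p = 0.00167) where Adss rose. It was higher in cKO TAC than in floxed TAC hearts (log2 0.70 ± 0.14, adjusted p = 0.00738, or 0.0582 without floxed TAC 2), and its interaction of log2 0.65 had an adjusted p of 0.0572.

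Impdh2 exceeded Impdh1 in every library, at 32.4 ± 3.79 against 13.9 ± 0.186 CPM per kb in floxed sham hearts. Ctps exceeded Ctps2 in every library, at 17.1 ± 1.11 against 2.2 ± 0.458 in floxed sham and 39.7 ± 1.76 against 3.38 ± 0.226 CPM per kb in floxed TAC hearts. Shmt2 exceeded Shmt1, at 24.2 ± 0.0645 against 3.0 ± 0.514 CPM per kb in floxed sham hearts. Prps1 exceeded Prps2, at 15.7 ± 2.32 against 9.24 ± 0.00787 CPM per kb there. Over all 33 enzymes in floxed sham hearts, Taldo1 (72.6 ± 5.86) and Paics (64.9 ± 3.91) were highest per length, and Aldh1l2 (0.593 ± 0.416), Phgdh (0.864 ± 0.28) and Mthfd2 (0.979 ± 0.284 CPM per kb) were lowest. Phgdh and Mthfd2 thus rose from low levels, while Paics stayed within 148 and 178 CPM in every library.

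**Figure D4:**
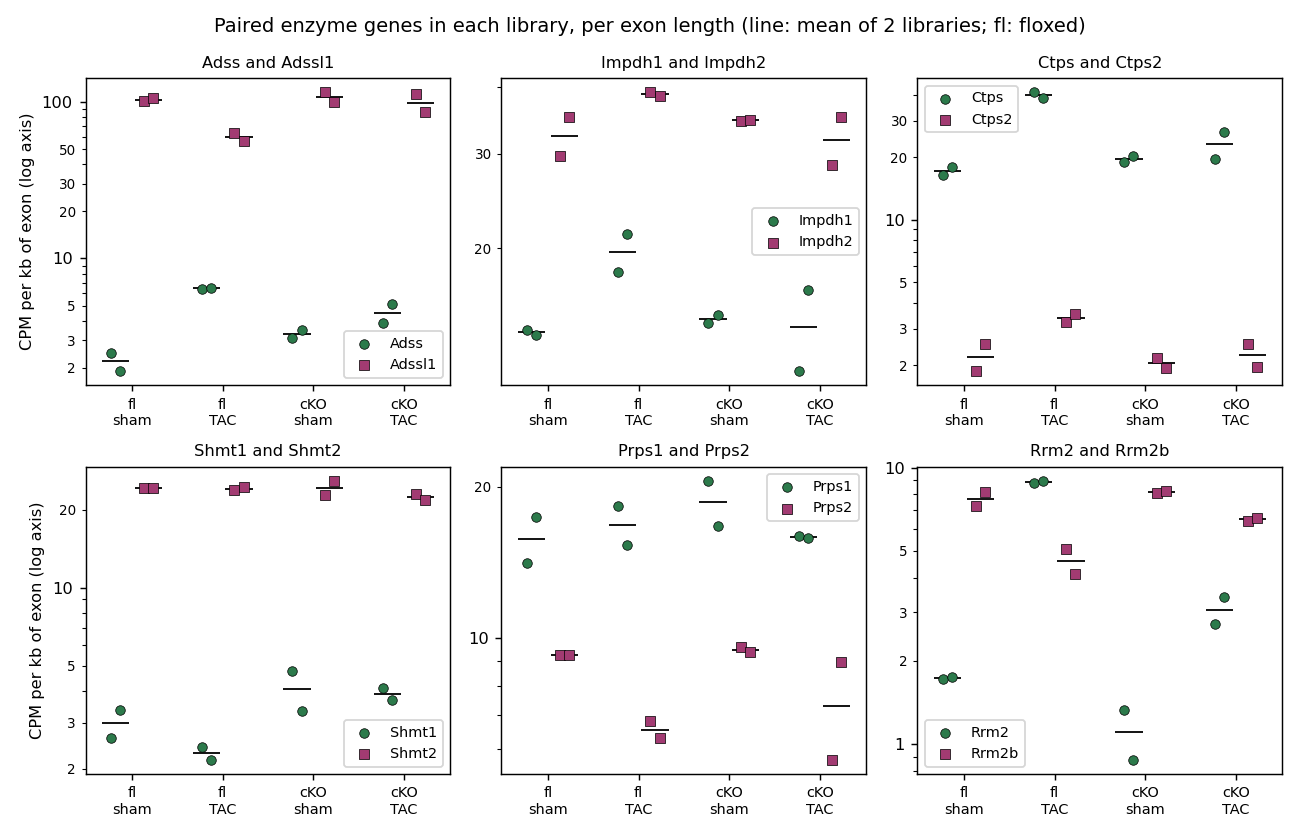
CPM per kb of exon on log axes for 6 pairs of genes that encode the same enzyme or subunit, with a point for each library, circles for the first and squares for the second gene of a pair, and a bar for the group mean. Adss rises and Adssl1 falls in floxed TAC, and Rrm2 lies below Rrm2b in every group except floxed TAC.

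Other genes of these pathways were taken from 6 lists of 75 genes, of which 69 were listed and tested. In floxed TAC against sham 31 rose, 12 fell and 26 did not pass, with a median of log2 0.36. Of all genes tested, 27.9% rose and 14.5% fell in that comparison, with a median of log2 0.14. Purine salvage and breakdown had 11 higher and 5 lower of 17, deoxynucleotide synthesis 8 higher and 2 lower of 12, and pyrimidine salvage and breakdown 4 higher and 1 lower of 8. Other serine and folate genes had 6 higher and 3 lower of 23, and other pentose genes had 1 lower of 6.

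In salvage Uck2, a uridine and cytidine kinase, was at 26.3 and 25 CPM in floxed sham, 281 and 324 in floxed TAC, 30.5 and 23.4 in cKO sham and 69.2 and 112 in cKO TAC libraries. Its groups did not overlap between TAC and sham in either genotype, and it rose in both floxed (log2 3.51 ± 0.21, adjusted p = 1.28e-05) and cKO hearts (log2 1.69 ± 0.21, adjusted p = 0.00548), with a smaller response in cKO hearts (log2 -1.82 ± 0.30, adjusted p = 0.0084). Upp1, which splits uridine, rose by log2 1.77 and Cda, a cytidine deaminase, by 1.08 in floxed hearts, while Dpyd, the first enzyme of pyrimidine breakdown, fell by 1.36 on the log2 scale. On the purine side Ada, Aprt, Gda and Ampd2 rose by log2 1.63, 1.4, 1.35 and 1.2, and Pnp by 1.17 (adjusted p at most 0.00271). Ak1, the adenylate kinase abundant in muscle, fell in floxed hearts (log2 -0.87 ± 0.12, adjusted p = 0.000322).

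For deoxynucleotides, Rrm2, the subunit of ribonucleotide reductase made in dividing cells, was at 3.76 and 3.84 CPM in floxed sham, 19.2 and 19.6 in floxed TAC, 2.91 and 1.92 in cKO sham and 5.96 and 7.49 in cKO TAC libraries. It rose in floxed (log2 2.09 ± 0.22, adjusted p = 9.05e-05) and in cKO hearts (log2 1.18 ± 0.22, adjusted p = 0.0251). Rrm2b, the subunit used outside division, which was also chosen after its values were seen, went the other way in floxed hearts (log2 -0.72 ± 0.14, adjusted p = 0.00284). Per kb of exon Rrm2 was at 1.73 ± 0.0252 and Rrm2b at 7.7 ± 0.63 CPM in floxed sham, against 8.86 ± 0.115 and 4.6 ± 0.656 in floxed TAC hearts. Tk1, thymidine kinase, rose by log2 2.11 in floxed and 2.0 in cKO hearts, and the interaction was log2 -0.11 (interval -0.78 to 0.56). Tyms and Dck, for thymidylate and deoxycytidine, rose by log2 1.8 and 1.47 in floxed hearts. Dividing-cell markers moved with these genes, as given above.

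Of the folate and serine genes outside the 33, the amino acid carrier Slc1a4 rose most, at 1.56 and 3.48 CPM in floxed sham, 20.4 and 20.1 in floxed TAC, 4.56 and 2.79 in cKO sham and 3.75 and 6.28 in cKO TAC libraries (log2 2.65 ± 0.32, adjusted p = 0.000206 in floxed hearts). Ggh, a folate hydrolase, rose by log2 0.90, and Cth, of cysteine synthesis, had log2 -0.96 (adjusted p = 0.0455) at no more than 2.14 CPM. Tigar, which turns sugar phosphates towards the pentose pathway, fell by 0.39 on the log2 scale. Among the regulators Atf4, which drives serine and folate genes, rose in floxed (log2 0.82 ± 0.15, adjusted p = 0.00201) and cKO hearts (log2 0.72 ± 0.15, adjusted p = 0.0411), with an interaction of log2 -0.10 (interval -0.58 to 0.38). Myc, a driver of nucleotide synthesis genes, was at 2.72 and 4.26 CPM in floxed sham, 21.9 and 38 in floxed TAC, 12.7 and 4.98 in cKO sham and 6.45 and 9.57 in cKO TAC libraries, rose in floxed hearts (log2 2.76 ± 0.40, adjusted p = 0.000517) and had a lower response in cKO hearts (log2 -2.78 ± 0.56, adjusted p = 0.0154). Nfe2l2, which encodes NRF2, had a change of log2 0.19 in floxed hearts (adjusted p = 0.355).

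Across the same 69 genes, 4 rose in cKO hearts (Uck2, Tk1, Rrm2 and Atf4) and none differed between genotypes in sham hearts. Of all genes, 2.09% rose in cKO hearts and 0.0534% differed between genotypes in sham hearts. The rise of Atf4 in cKO hearts did not pass under RLE or TMM scaling, by edgeR or by limma-voom. Nor did it pass with only the groups compared or with the replicate block. Atf4 lost that call without either floxed sham library, either cKO sham library or cKO TAC 1 (adjusted p up to 0.166), and Rrm2 without any floxed library, cKO sham 2 or cKO TAC 2 (up to 0.119). Without the 3 libraries with atrial transcripts none of these 4 passed in cKO hearts. The interaction of Myc did not pass without floxed sham 1 or floxed TAC 2 (adjusted p up to 0.0728). In floxed hearts the calls of Cda (without floxed sham 1 or floxed TAC 1), Tigar (without either floxed sham library or floxed TAC 1) and Cth (without either sham library of either genotype or floxed TAC 1) were lost, with adjusted p up to 0.0686, 0.113 and 0.345. In TAC hearts 8 were higher and 18 lower in cKO, and in the interaction 3 were higher and 12 lower. Of all genes, 8.39% were higher and 16.5% lower in TAC hearts, and 4.93% higher and 9.18% lower in the interaction.

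**Figure D5:**
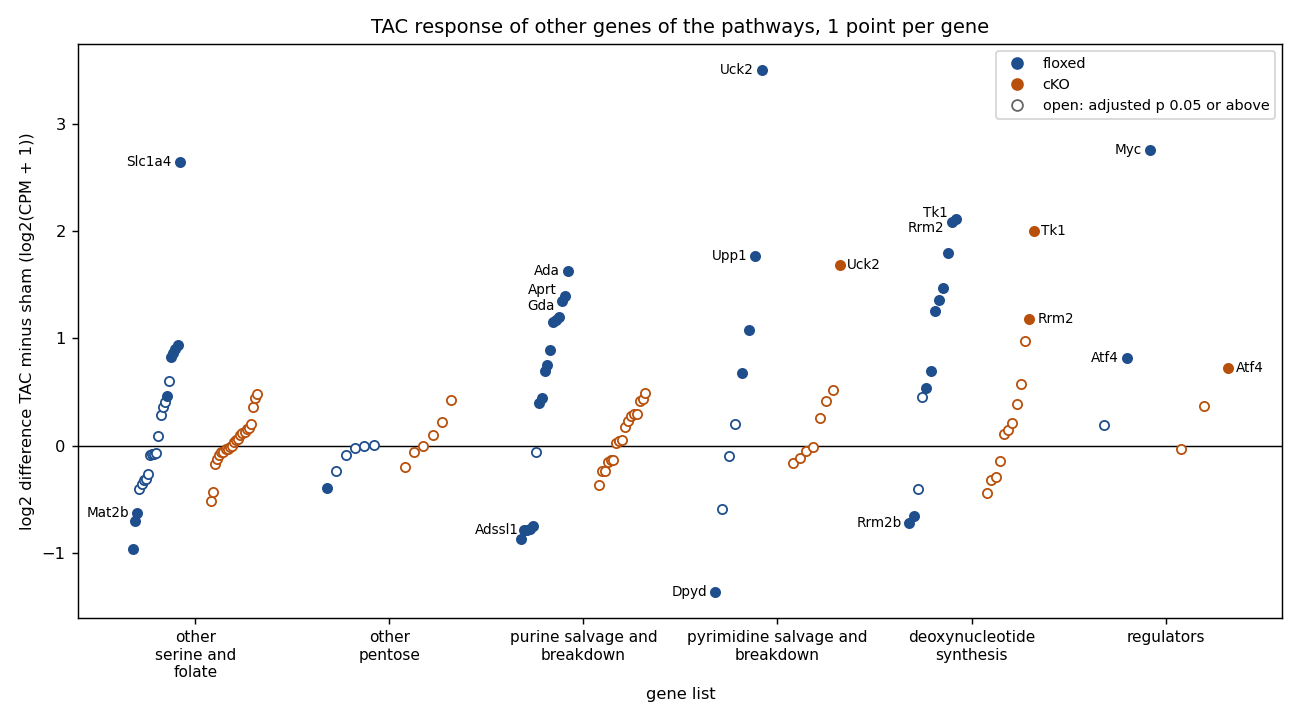
Log2 difference of TAC against sham for the 69 other genes in 6 lists, 1 point per gene, floxed in blue and cKO in orange, where filled points passed an adjusted p of 0.05. In floxed hearts 43 points are filled, and in cKO hearts Uck2, Tk1, Rrm2 and Atf4 are.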

How the data were processed

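Per the labels' protocols, RNA of the left ventricle (Trizol) went into stranded TruSeq mRNA libraries, which were sequenced as paired 50 bp reads on an Illumina HiSeq. Per the submitters' processing notes, Bowtie2 2.2.6, HTSeq, DESeq2 and the mm10 genome were used; their settings, the annotation and whether counting used strand are not known here. The authors deposited CPM, that is, gene counts divided by the library total and rescaled. Reads recovered from these values were whole numbers, within 0.02 reads, for 100% of the values in every library, and genes outside the table took 0.153% to 0.201% of each total. No values of other samples were present.

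From these values, limma 3.58.1 (R 4.3.3) with a trended variance was fitted on log2(CPM + 1), with 1 coefficient per group over all 8 libraries. Genes at 1 CPM or more in at least 2 libraries were tested (13120 kept, 319 removed), and Benjamini-Hochberg adjusted p under 0.05 passed. With 2 libraries against 2, an exact two-sided permutation test cannot go below p = 0.333, so adjusted p-values come from this model across all genes. Log2 differences are given ± SE and understate changes of low genes. Alternatives were a pseudocount of 0.25 or 4 CPM, no filter, a filter of 5 CPM, RLE and TMM scaling, only the groups compared, a replicate block, leaving out each library or the 3 with atrial transcripts, and, on the reads recovered from CPM, edgeR 4.0.16, DESeq2 1.42.0 and limma-voom. On these reads edgeR's quasi-likelihood test called 5559 genes for TAC against sham in floxed hearts, 346 in cKO hearts, 6 and 3070 between genotypes in sham and TAC hearts and 1601 for the interaction.

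Named genes are the 33 enzymes and, of 75 other pathway genes, up to 4 per list with the largest change past the threshold in floxed hearts, all past it in the interaction, and 3 regulators; Adssl1 and Rrm2b were added after their values were seen. One gene that the rule names is not reported here. The enzymes, the lists and the tests were chosen with earlier results of these data known. Levels per kb use exon lengths of GENCODE M21. Promoter windows are from RefSeq (GRCm38.p6). CPM sums of markers are over listed markers.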

Additional observations from a re-analysis of the deposited data

Results flagged for a closer look

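The response to TAC differed between genotypes, by the interaction in limma with Benjamini-Hochberg adjustment over all 13120 genes, for 21 of the genes described, 18 with a lower and 3 with a higher response in cKO hearts. These 21 were 6 of the 33 enzymes (18.2%) and 15 of the 69 other genes tested. Of all genes 14.1% passed, 9.18% lower and 4.93% higher, so the share of the enzymes was not far above that of all genes. Passing this test was also a rule for naming other genes, so the count of 21 follows in part from that rule. Values are differences on the log2 scale, negative where the response was lower in cKO hearts.

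Among the pentose phosphate enzymes the differences were -1.31 for G6pdx, -1.25 for Tkt, -1.05 for Rpe and -0.94 for Pgd. Adss, of AMP synthesis, differed by -1.01 and Ctps, of CTP synthesis, by -0.99. For Rpe and Adss both cKO sham libraries lay above both floxed sham libraries, which is part of the difference. Neither passed between genotypes in TAC hearts. In all 6 the floxed TAC libraries were above every other library, which follows in part from choosing them by a negative interaction. The cKO TAC libraries lay above all shams for G6pdx and Adss only.

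Outside the 33 enzymes, the salvage kinase Uck2 differed by -1.82 and was the one named gene whose interaction passed in each fit that left out 1 library. Upp1 differed by -1.51. Purine salvage and breakdown genes differed by -1.43 (Ampd2), -1.22 (Aprt), -1.14 (Ada), -1.08 (Gda) and -0.75 (Pnp). Of the deoxynucleotide genes Tyms differed by -1.23, Rrm1 by -0.97 and Samhd1, which breaks deoxynucleotides down, by -0.68. The carrier Slc1a4 differed by -2.29 and the regulator Myc by -2.78, the lowest value of the 21. Part of the value of Myc came from sham hearts, where cKO exceeded floxed by log2 1.03 without passing, against -1.75 in TAC hearts. The 3 genes with a higher response in cKO hearts were Dpyd (1.78), Ak1 (0.64) and Mat2b, a subunit of methionine adenosyltransferase (0.60), and all 3 fell in floxed hearts. Under RLE scaling the median interaction of all genes moved from -0.13 to -0.02, and Adss, Ada, Pnp, Tyms and Samhd1 did not pass. Upp1 did not pass by edgeR or limma-voom. Without the 3 libraries with atrial transcripts none of the 3 genes with a higher response passed, nor did Adss, Ada, Pnp and Samhd1.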

How the results depend on the processing

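No named gene's difference that passed the threshold changed sign under any alternative run. The median of the enzymes in cKO hearts did, between -0.07 without cKO sham 1 and 0.12 without cKO TAC 1. Over all genes DESeq2 gave 23 higher and 29 lower in sham hearts, against 6 and 1. With each library left out in turn, the number of the 33 enzymes past the threshold ranged from 10 to 19 for TAC against sham in floxed hearts (19 with all libraries), from 0 to 1 in cKO hearts (0), from 3 to 14 for cKO against floxed in TAC hearts (12), from 0 to 13 for the interaction (6) and was 0 each time in sham hearts (0). The calls of 9 of 19, 3 of 12 and 0 of 6 enzymes in floxed hearts, TAC hearts and the interaction were kept in every such fit. The other alternatives gave 14 to 22, 10 to 16 and 6 to 9 enzymes in these 3 comparisons. In cKO hearts they gave 1 enzyme under RLE scaling, 1 under TMM scaling, 1 by edgeR, 2 by DESeq2 and 2 with the replicate block. Over all genes the count in cKO hearts ranged from 73 to 614 with a library left out and from 48 to 691 under other alternatives (332 in the fit reported), and in sham hearts from 1 to 16 and from 2 to 52 (7). Differences of replicate 2 minus replicate 1 showed no close match between groups, with correlations over 13120 genes between -0.11 and 0.08. Such values cannot exclude a shared batch, and atrial transcripts were high in replicate 2 of every group but floxed TAC. With the replicate block 19, 2, 0, 14 and 7 enzymes passed in the 5 comparisons, and with the numbers of floxed TAC exchanged, a choice made after seeing the data, 18 passed in floxed hearts. Without the 3 libraries with atrial transcripts the median of the enzymes was log2 0.57 in floxed hearts, against 0.14 for all genes. In TAC hearts it was then -0.50 against -0.15, and for the interaction -0.59 against -0.16. Depth limits the low genes most: Phgdh in cKO sham 2 was at 0.597 CPM, where a count of 0 in that library allows up to 0.199 CPM.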
